A study of Mus musculus with 6 samples.

Results

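The corticosteroid receptors Nr3c1 and Nr3c2 and 8 genes that glucocorticoids induce in many tissues (Fkbp5, Sgk1, Tsc22d3, Zbtb16, Klf9, Mt1, Mt2 and Pdk4) were followed in the hippocampus of wild-type mice and of mice lacking Ppp1r1a, the gene of inhibitor-1, which restrains protein phosphatase 1. Every probe set that the platform annotation gives to exactly 1 of these symbols was taken, which made 29 of the 45037 probe sets that are not controls. All 10 genes had at least 1 such probe set, and 25 of the 29 were bright enough to be tested. The study holds 6 samples of total hippocampal RNA, 3 labelled wild-type and 3 labelled inhibitor-1 knock-out, each on 1 one-colour array. The labels give genotype, tissue and a replicate number only. Sex, age, strain, stress history, time of day at death and the targeting construct are not given in the sources used here, nor is it said whether each array is a separate animal, so the spread behind each p-value is that of these arrays and may be technical.

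The hippocampus is among the brain regions richest in corticosteroid receptors. The mineralocorticoid receptor, encoded by Nr3c2, binds corticosterone tightly and is largely occupied at resting hormone levels, whereas the glucocorticoid receptor, encoded by Nr3c1, fills as corticosterone climbs at the daily peak or under stress. Bound receptor moves to the nucleus, where it acts on glucocorticoid response elements in DNA, and the transcripts of its target genes therefore serve as a readout of recent hormone exposure.

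The values were deposited as intensities on a linear scale, and every array had a mean of 2500 once the top and bottom 2% of its values were set aside. Ppp1r1a checked the labels: wild-type intensities ran from 8370 to 10345, those of knockout from 249 to 347 (log2 change -4.93, SE 0.18, limma adjusted p = 3.58e-07). It lies on chromosome 15, which carries 0 of the 10 genes described here. All 7 dentate granule markers and all 10 pyramidal neuron markers with a probe set were bright enough to be tested. So were all 11 markers of other brain regions with a probe set, so this does not tell the hippocampus from those regions. Replicate 1 of both groups stood apart: their median intensities, 572 in wild type and 540 in knockout, were the lowest, and the deviations of these 2 arrays from their group means correlated at 0.24, against -0.16 to 0.11 for all other pairs across groups. Values without them are therefore given below where they differ most.

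None of the 10 genes passed the threshold, a Benjamini-Hochberg adjusted p under 0.05 over the 26999 probe sets tested with limma. Of the 25 tested probe sets of these genes, 0 were called in either direction, where 0.0111% of all tested probe sets were (lowest limma adjusted p 0.988). At an unadjusted p under 0.05, 3 of the 25 were higher in knockout and 0 lower, that is 12% higher against 2.17% of all tested probe sets and 0 lower against 2.21%. These 3 belong to Sgk1, Tsc22d3 and Zbtb16. With no filter, 3 of the 29 probe sets were higher and 1 lower at that p. In that fit 4.63% of all probe sets were under it in either direction. The groups did not overlap for 1 of the 25, with knockout higher, against 4.97% of all tested probe sets, which is close to that background, and for 0 with knockout lower, against 4.91%. Of the 25, 15 or 60% had a log2 change above 0, against 50.9% of all tested probe sets. The median log2 change was 0.06 over the 25 probe sets and 0.004 over all 26999. The receptors and the induced genes lay on different sides of 0, with a median log2 change of -0.07 over 6 receptor probe sets and 0.07 over 19 probe sets of induced genes, of which 15 were above 0 (13 under median scaling and 12 without replicate 1 of both groups). Since these genes were chosen with earlier results of the same data known, the counts are a description and were not tested as a set.

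**Figure D1:**
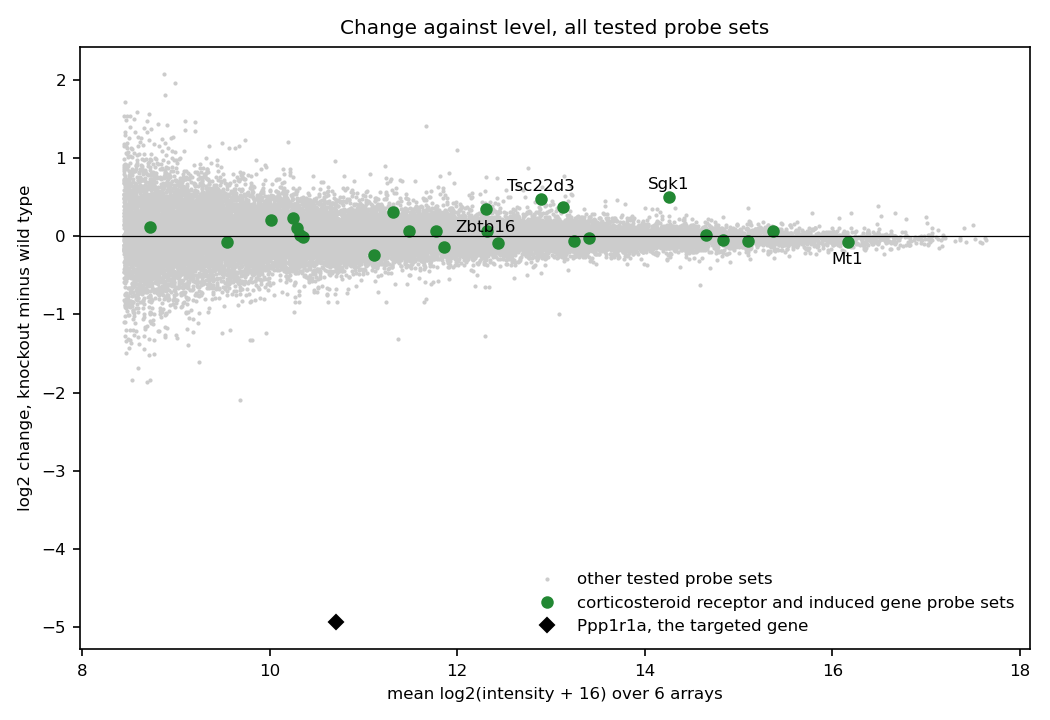
Log2 change (knockout minus wild type) of all 26999 tested probe sets against their mean log2(intensity + 16) over 6 arrays. The 25 probe sets of the corticosteroid receptors and induced genes are green, with Sgk1 at 0.50 and Tsc22d3 at 0.48 the highest of them, and Ppp1r1a is the black diamond at -4.93.

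The receptors came first. The glucocorticoid receptor transcript had 6 probe sets. The brightest, 1421867_at, had intensities of 10700, 10041 and 12219 in wild type and 11381, 9865 and 11081 in knockout. The groups overlapped almost wholly, and the log2 change was -0.03 (SE 0.10, limma adjusted p = 0.998), with a 95% interval that runs from 0.850 to 1.14 times the wild-type level. Next in brightness, 1460303_at read 5744, 6258 and 5150 in wild type and 4956, 5586 and 5544 in knockout, for a log2 change of -0.09 (SE 0.11). The interval of this probe set ran from 0.800 to 1.10 times the wild-type level, so larger differences lie outside what both allow. Leaving out 1 array moved 1421867_at from -0.09 to 0.05 and 1460303_at from -0.16 to -0.02.

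The other Nr3c1 probe sets were dimmer and less precise. Probe set 1421866_at read 2863, 2142 and 2237 in wild type and 1899, 1715 and 2543 in knockout (log2 change -0.24, SE 0.18), with the highest knockout array above the middle wild-type array. Its log2 change ran from -0.40, without knockout replicate 3, to -0.11, without wild type replicate 1, and was -0.07 without replicate 1 of both groups. Probe sets 1453860_s_at and 1457635_s_at showed log2 changes of -0.07 (SE 0.30) and -0.01 (SE 0.18). The first of these was 0.22 without knockout replicate 2, -0.27 without knockout replicate 1 and -0.30 without replicate 1 of both groups, and the second crossed 0 as well, at -0.07 to 0.02 leaving out 1 array. The remaining one, 1431378_at, was not tested, because its mean over all 6 arrays fell under the filter at a log2 level of 8.44. Its mean log2 level was 8.54 in wild type, above that cut, and 6.78 in knockout, a log2 change of -1.76. The knockout values of 1431378_at spread from 43.6 to 355 against 312 to 429 in wild type. Its lowest readings, on knockout replicates 1 and 2, stood beside replicate 3 within the wild-type range, so the groups overlapped.

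Nr3c2, the mineralocorticoid receptor, had a single probe set, 1435991_at. It read 9409, 9259 and 11128 in wild type and 8716, 9302 and 10459 in knockout, a difference of -0.06 in log2 (SE 0.10, limma adjusted p = 0.991) and an interval of 0.820 to 1.11 times the wild-type level. Replicate 3 was the brightest array of each group, and the groups overlapped. All 6 tested receptor probe sets had a log2 change below 0, from -0.24 to -0.01, also under quantile normalization and median scaling. That common sign rested on single arrays: 3 of 6 were below 0 without knockout replicate 2 and 4 of 6 without wild type replicate 3. In whole tissue, fewer cells of a type and less RNA per cell cannot be told apart, and this holds for every value here.

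**Figure D2:**
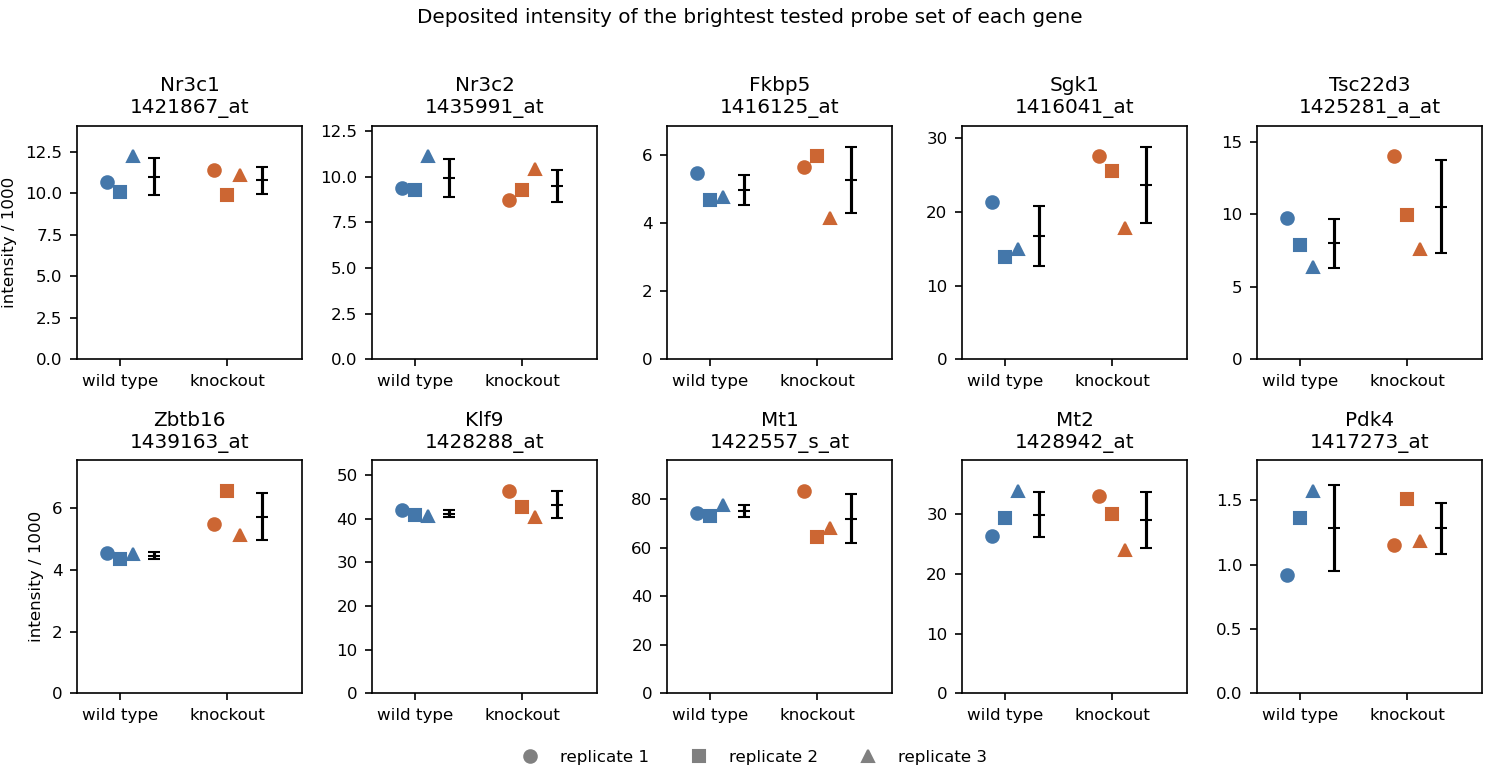
Deposited intensity (divided by a constant for display, axis from 0) of the brightest tested probe set of each gene on each array. Symbols mark the replicate number, bars the mean ± SD of 3 arrays. Sgk1 and Tsc22d3 were highest on knockout replicates 1 and 2, and in the Zbtb16 panel all 3 knockout arrays lie above all 3 wild-type arrays.

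Among the induced genes, Sgk1 had the largest difference. It encodes serum- and glucocorticoid-regulated kinase 1, which regulates ion channels and transporters and is induced in neurons and oligodendrocytes by corticosteroids. Its transcription can begin at several starts, and of the 6 start windows RefSeq gives for it in the mouse genome (build GRCm38.p6; each runs from 250 bases before the start to 50 after it), the fifth holds a perfect copy of the palindromic response element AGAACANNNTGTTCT. The search took both strands. The window lies at chr10:21993640-21993939 on the plus strand. It is shown because the response element in it is of the kind that both corticosteroid receptors recognise; capitals mark the 6-base element AGAACA, or TGTTCT on the other strand, and the pair of them 3 bases apart is the full element.

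Sgk1: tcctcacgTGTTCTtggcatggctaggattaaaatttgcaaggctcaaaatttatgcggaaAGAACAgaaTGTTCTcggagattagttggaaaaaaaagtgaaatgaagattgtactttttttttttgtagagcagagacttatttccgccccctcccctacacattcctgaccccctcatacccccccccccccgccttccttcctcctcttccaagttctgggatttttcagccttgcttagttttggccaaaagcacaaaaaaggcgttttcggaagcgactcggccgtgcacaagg

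The 15 bases begin 189 bases before the start. Only 3 of the 32851 promoter windows of the RefSeq table, 0.00913%, hold this exact element, whereas 19.0% hold the 6-base element at least once. A match of letters is a description and does not show that a receptor is bound there. Windows of 8 of the 10 genes were used, 15 windows in all, and 1 of the 15 held the full element. No window of Nr3c1 was used, and the table held none for Zbtb16.

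Sgk1 probe set 1416041_at had intensities of 21344, 13873 and 14939 in wild type and 27561, 25545 and 17834 in knockout. Knockout replicates 1 and 2 lay above every wild-type array, while knockout replicate 3 lay below wild type replicate 1. The means were 16719 ± 4041 (SD, n = 3) and 23646 ± 5134 (SD, n = 3). The log2 change was 0.50 (SE 0.17, 95% interval 0.12 to 0.89), 1.42 times the wild-type level, at a limma p of 0.0151 before and 0.988 after adjustment over all probe sets. The exact permutation test of the 6 arrays gave p = 0.2, where 3 against 3 cannot go below 0.1. The difference of the means was larger than the SD of either group, but the groups overlapped and the call was not made. Leaving out single arrays moved it from 0.38, without knockout replicate 1, to 0.69, without wild type replicate 1, and it was 0.57 without replicate 1 of both groups.

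Tsc22d3 encodes GILZ, the glucocorticoid-induced leucine zipper, an X-linked transcriptional regulator with anti-inflammatory actions in immune cells. Of its 3 start windows in RefSeq, the third (chrX:140600473-140600772, minus strand, GRCm38.p6) holds the 6-base element once, 185 bases before the start. It is printed, with that element in capitals, to set it beside the Sgk1 window. The other Tsc22d3 windows hold no such element, and 19.0% of all promoter windows hold it at least once. Whether this element bears on the values below was not tested.

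Tsc22d3: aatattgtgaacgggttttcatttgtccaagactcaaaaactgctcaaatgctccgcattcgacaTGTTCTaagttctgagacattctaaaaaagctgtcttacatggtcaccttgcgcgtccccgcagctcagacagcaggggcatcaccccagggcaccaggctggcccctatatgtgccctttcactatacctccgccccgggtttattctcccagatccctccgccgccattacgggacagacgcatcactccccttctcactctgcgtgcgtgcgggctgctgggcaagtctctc

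Probe set 1420772_a_at of Tsc22d3 read 8023, 6172 and 5406 in wild type and 11155, 9268 and 6969 in knockout. The order of the arrays was like that of Sgk1: knockout replicates 1 and 2 were highest, wild type replicate 1 was above the other wild-type arrays, and knockout replicate 3 lay inside the wild-type range. The log2 change was 0.48 (SE 0.17), 1.39 times the wild-type level, with a limma p of 0.019 before and 0.988 after adjustment. The brighter probe set 1425281_a_at, at 9776, 7857 and 6359 in wild type and 14002, 9964 and 7634 in knockout, had a log2 change of 0.37 (SE 0.20). This value was 0.15 with knockout replicate 1 left out, 0.58 with knockout replicate 3 left out, 0.22 or 0.53 when wild type replicate 3 or 1 was dropped, and 0.30 without replicate 1 of both groups. It stayed above 0, but its size moved with single arrays of either group. Another, 1425557_x_at, whose probes may also match other transcripts, had a different order of arrays, with knockout replicate 1 lowest at 840 and knockout replicate 3 highest at 1798 (log2 change 0.11, SE 0.26; 0.42 without knockout replicate 1 and -0.13 without knockout replicate 3). The last, 1444365_at, was too dim to be tested, at 75.5 to 296 on wild-type arrays and 145 to 261 on knockout arrays.

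Zbtb16 encodes PLZF, a zinc finger transcriptional repressor that glucocorticoids induce strongly in several tissues. Its probe set 1439163_at read 4549, 4345 and 4510 in wild type and 5500, 6579 and 5132 in knockout. Wild-type arrays were close together, all knockout arrays lay above them, and it is the only probe set among the 25 whose groups did not overlap. The log2 change was 0.35 (SE 0.11, 95% interval 0.11 to 0.60), 1.28 times the wild-type level, with a limma p of 0.00897 before and 0.988 after adjustment and an exact permutation p of 0.1, the smallest that 3 against 3 arrays allow. It ran from 0.25 to 0.43 leaving out 1 array and was 0.39 without replicate 1 of both groups. The other Zbtb16 probe sets were dimmer and overlapped between groups: 1419874_x_at had a log2 change of 0.31 (SE 0.19) and 1427638_at one of 0.23 (SE 0.27). Leaving out 1 array moved the former from 0.10, without wild type replicate 2, to 0.52, without wild type replicate 3, and the latter from -0.04, without wild type replicate 3, to 0.46, without wild type replicate 1.

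Fkbp5 encodes FKBP51, a cochaperone that lowers the hormone affinity of the glucocorticoid receptor and so closes a short negative feedback loop. It is among the most used readouts of receptor activity in brain. Probe set 1416125_at read 5485, 4691 and 4771 in wild type and 5672, 5975 and 4167 in knockout. The highest and second highest arrays were knockout replicates 2 and 1, and the lowest of all was knockout replicate 3. The log2 change was 0.07 (SE 0.14, limma adjusted p = 0.997), with an interval of 0.848 to 1.29 times the wild-type level. It was -0.03 without knockout replicate 2 and 0.23 without knockout replicate 3, so its sign rested on single arrays. Probe set 1448231_at gave 0.06 (SE 0.16), with wild type replicate 1 its highest array at 4281, and moved from -0.06 without wild type replicate 2 to 0.23 without wild type replicate 1. The remaining probe set, 1447736_at, stayed at or below 28.3 on every array and was not tested.

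Klf9, a Krüppel-like transcription factor induced by glucocorticoids and thyroid hormone in neurons, was measured by 7 probe sets, more than any other gene here. The brightest, 1428288_at, read 42046, 40783 and 40738 in wild type and 46461, 42731 and 40454 in knockout. Its log2 change was 0.07 (SE 0.07), and the interval of 0.944 to 1.16 times the wild-type level is among the narrowest of the 25. Probe set 1456341_a_at, about as bright, had the opposite sign at -0.05 (SE 0.06). Over the 6 tested Klf9 probe sets, 4 were above 0 and 2 below, from -0.13 to 0.20. Knockout replicate 1 was the highest array at 3 of them, 1422264_s_at, 1428288_at and 1428289_at, and the lowest at 1436763_a_at and 1456341_a_at, so the Klf9 probe sets did not order the arrays alike. The highest of the 6 changes, 0.20 at 1422264_s_at, was 0.03 without knockout replicate 1 and -0.07 without replicate 1 of both groups.

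Mt1 and Mt2 encode metallothioneins, small cysteine-rich proteins that bind zinc and copper, and lie next to each other on chromosome 8. Both glucocorticoids and metals induce them, metals through the transcription factor MTF1 and its metal response elements. The start windows of RefSeq (GRCm38.p6, both on the plus strand) are chr8:94178839-94179138 for Mt1 and chr8:94172368-94172667 for Mt2. They are printed to set the metal element, in capitals, beside the response element of Sgk1. The letters searched were TGCACNC or TGCGCNC on both strands.

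Mt1: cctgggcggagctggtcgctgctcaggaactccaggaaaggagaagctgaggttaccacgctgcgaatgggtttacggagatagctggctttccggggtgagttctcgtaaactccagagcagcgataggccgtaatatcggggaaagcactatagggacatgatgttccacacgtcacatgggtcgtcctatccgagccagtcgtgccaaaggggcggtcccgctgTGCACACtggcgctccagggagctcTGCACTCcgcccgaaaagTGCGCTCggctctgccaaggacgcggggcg
Mt2: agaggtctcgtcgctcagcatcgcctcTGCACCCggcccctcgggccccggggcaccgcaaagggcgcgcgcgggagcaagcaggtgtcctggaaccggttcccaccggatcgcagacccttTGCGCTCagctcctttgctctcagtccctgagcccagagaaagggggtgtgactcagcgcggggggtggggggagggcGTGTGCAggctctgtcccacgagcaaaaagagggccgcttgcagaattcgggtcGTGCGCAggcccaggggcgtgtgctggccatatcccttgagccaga

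The Mt1 window holds this 7-base core 3 times and the Mt2 window 4 times, where 25.7% of all windows hold it at least once, 1.97% at least 3 times and 0.517% at least 4 times. Neither window holds AGAACA. The plot of motif positions sets these windows beside those of the other genes.

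**Figure D3:**
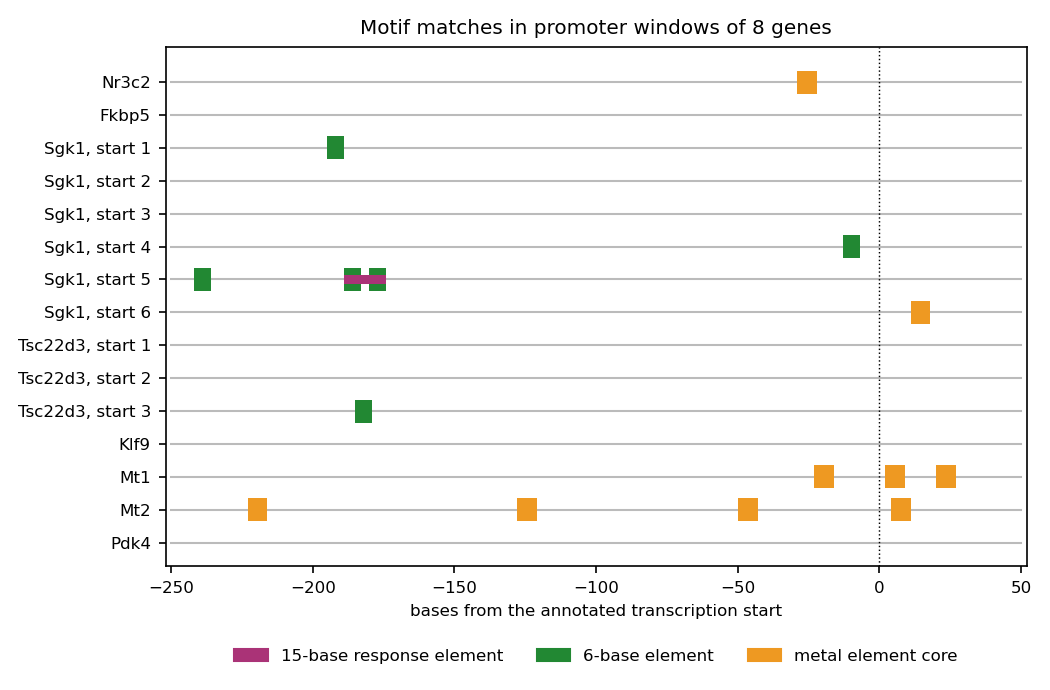
Positions of motif matches in the 15 RefSeq promoter windows of 8 genes, in bases from the annotated transcription start (dotted line); each grey line is 1 window. The 15-base response element (purple) lies in 1 Sgk1 window, the 6-base element (green) in 4 windows, and metal element cores (orange) in 4 windows, with 3 cores in Mt1 and 4 in Mt2.

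The metallothioneins were bright on all arrays. Mt1 probe set 1422557_s_at read 74508, 73299 and 77736 in wild type and 83645, 64336 and 68316 in knockout. The knockout arrays lay on both sides of the wild-type arrays, and the log2 change was -0.07 (SE 0.09, limma adjusted p = 0.991; 0.831 to 1.09 times the wild-type level). Mt2 probe set 1428942_at read 26373, 29397 and 33939 in wild type and 33031, 30000 and 23976 in knockout, for a log2 change of -0.05 (SE 0.12). For both genes knockout replicate 1 was the highest knockout array, and leaving out 1 array moved Mt1 from -0.18 to 0.01 and Mt2 from -0.15 to 0.08. Without replicate 1 of both groups the log2 change was -0.19 for Mt1 (limma p of 0.0256 before adjustment) and -0.24 for Mt2 (limma p of 0.052), in a fit where 10.5% of all tested probe sets had an unadjusted p under 0.05. The other Mt1 probe set, 1451612_at, was dim, at 325 to 536 on wild-type arrays and 358 to 513 on knockout arrays (log2 change 0.12, SE 0.36).

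Pdk4, pyruvate dehydrogenase kinase 4, limits the entry of pyruvate into the citric acid cycle and is induced by glucocorticoids and fasting. Its probe set 1417273_at read 920, 1365 and 1577 in wild type and 1155, 1510 and 1182 in knockout. The wild-type arrays held both the lowest and the highest value, and the log2 change was 0.02 (SE 0.23), with a wide interval of 0.709 to 1.45 times the wild-type level and values from -0.20 to 0.18 leaving out 1 array.

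**Figure D4:**
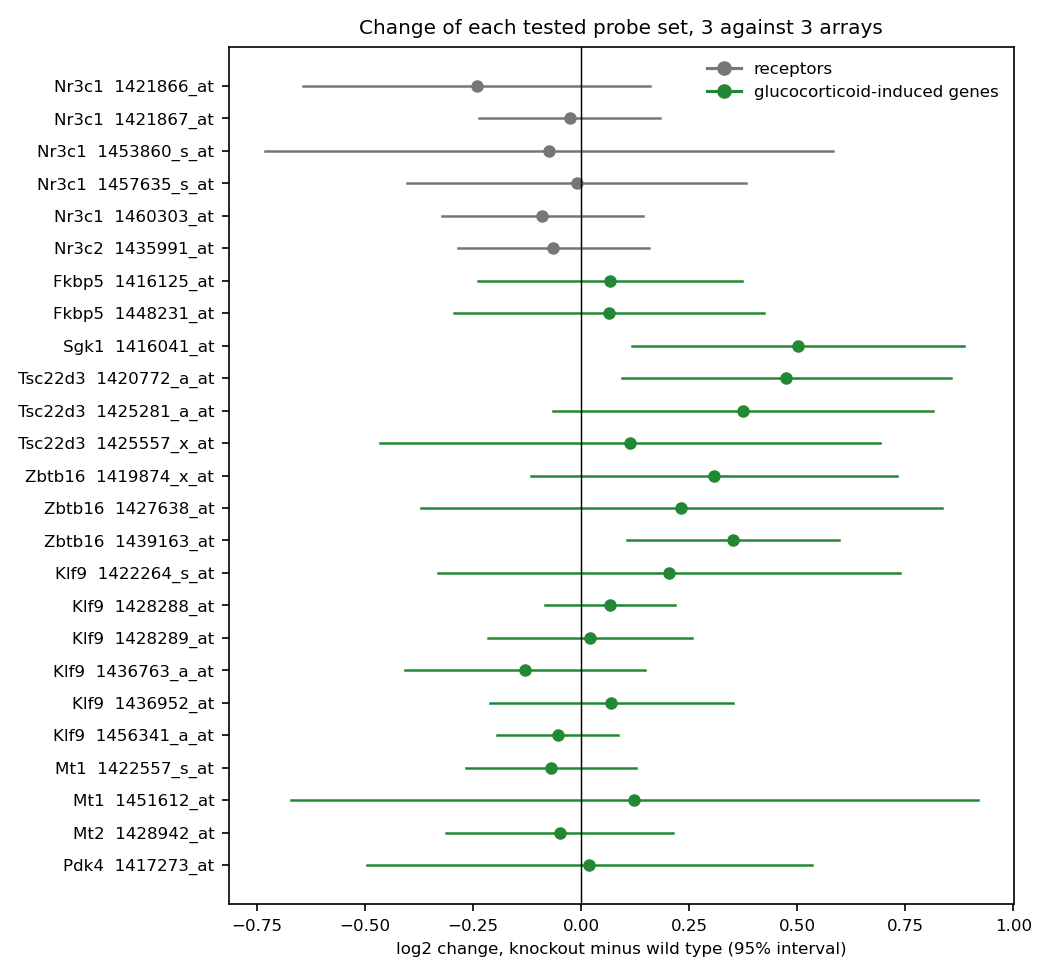
Log2 change (knockout minus wild type) of the 25 tested probe sets with 95% intervals from the limma fit, receptors in grey and induced genes in green. The intervals of Sgk1, of 1420772_a_at of Tsc22d3 and of 1439163_at of Zbtb16 lie above 0, and the other 22 include it.

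Over the 8 induced genes, each by its brightest tested probe set, the arrays differed within the knockout group more than the groups did. Knockout replicates 1 and 2 were each above the mean of the 6 arrays for 7 of 8 genes, whereas knockout replicate 3 was above it for 1 of 8. Knockout replicate 3 was the lowest of all 6 arrays for 3 genes (Fkbp5, Klf9 and Mt2), and knockout replicate 1 the highest for 4 (Sgk1, Tsc22d3, Klf9 and Mt1). Wild-type arrays were above the mean for 4, 2 and 3 of the 8 genes. The median centred level was 0.17, 0.19 and -0.12 log2 units in knockout replicates 1, 2 and 3, and 0.01, -0.08 and -0.07 in wild type. By this level knockout replicates 1 and 2 lay above all wild-type arrays and knockout replicate 3 below them.

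A like order was seen in 24 other tested glucocorticoid-induced genes, a list that includes Per1, Dusp1, Errfi1, Nfkbia, Ddit4 and Plin4. Over all 25 genes of that list with a probe set, tested or not, the mean centred level was 0.08, -0.10 and -0.11 in wild type. It was 0.18, 0.15 and -0.21 in knockout, again with knockout replicate 3 lowest. A low knockout replicate 3 was not particular to these genes. Activity-regulated immediate early genes stood at 0.07, 0.26 and -0.38 in wild type and at 0.15, 0.27 and -0.38 in knockout. Of the 24 genes, 18 had a log2 change above 0 and 6 below (median 0.10), against 50.9% of all tested probe sets above 0. None was called, and 0 were higher and 1 lower at an unadjusted limma p under 0.05, against 2.17% and 2.21% of all tested probe sets. The lower one was Glul, glutamine synthetase of astrocytes, at -0.19 (SE 0.09). Gjb6, an astrocyte connexin, had the next smallest p, at 0.24 (SE 0.13), and the clock gene Per1 was at 0.21 (SE 0.23).

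**Figure D5:**
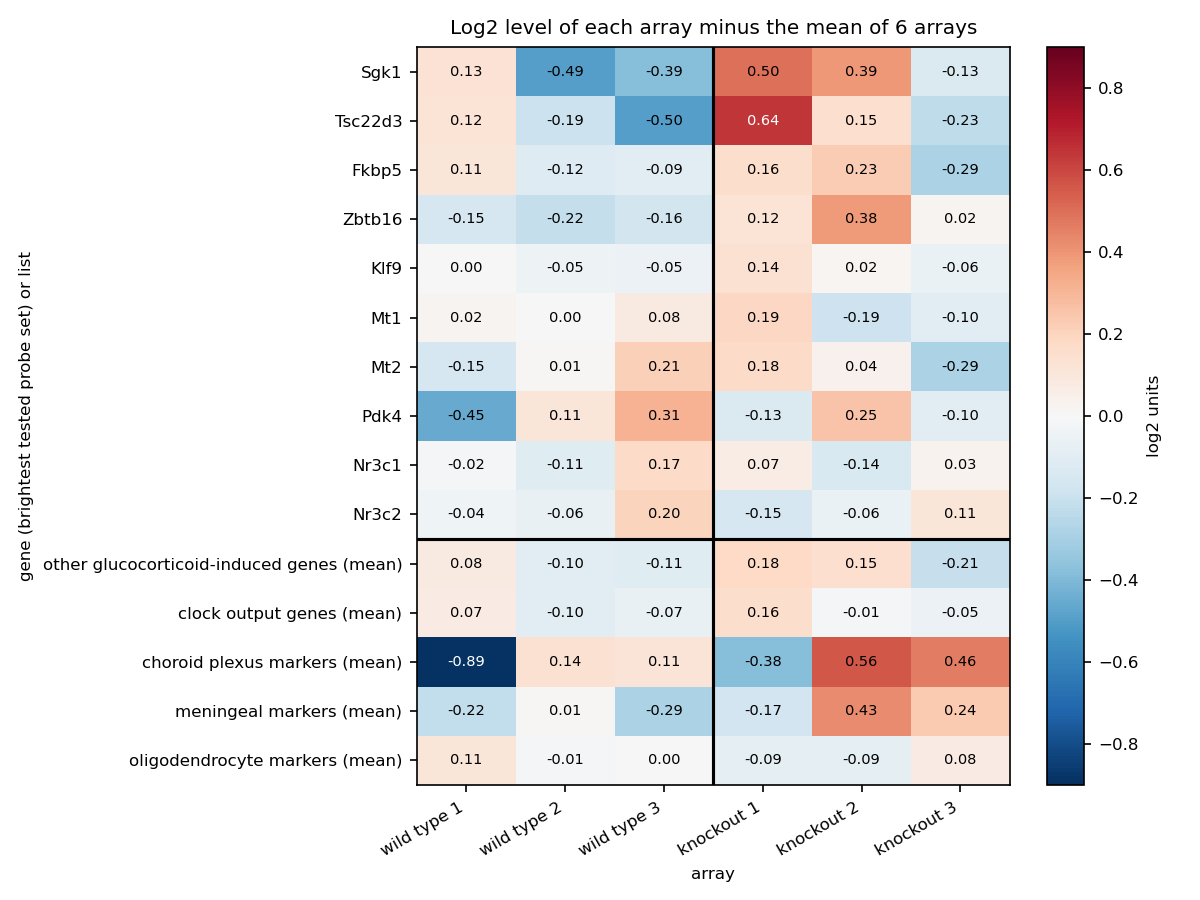
Log2 level on each array minus the mean of 6 arrays, for the brightest tested probe set of each gene (upper rows) and for the mean of gene lists (lower rows); red is above and blue below the mean. Sgk1, Tsc22d3 and Fkbp5 were high on knockout replicates 1 and 2 and below the mean on knockout replicate 3, and choroid plexus markers were lowest on replicate 1 of both groups.

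By the profile of its log2 values over the 6 arrays, the widest range among the 25 probe sets was that of Tsc22d3 1425281_a_at. The genes nearest to it among 23113 other named probe sets were Sox11, Tmem263 and Agap2, at root mean square distances of 0.08, 0.09 and 0.09 log2 units over 6 arrays. Sox11 is a transcription factor of immature neurons. Among the genes of this report Tsc22d3 1420772_a_at lay at 0.09 and Sgk1 at 0.18, while Nr3c2 lay at 0.47 and Pdk4 at 0.53. The farthest of the 25 was a probe set of the same gene, Tsc22d3 1425557_x_at, at 0.62. With 6 arrays and so many candidates some near profiles must occur, and the names are a description.

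The machinery around the receptors was measured by 14 tested genes of chaperones, steroid dehydrogenases and coregulators. Of these, 6 had a log2 change above 0 and 8 below (median -0.02), with 0 called and 0 at an unadjusted p under 0.05. Over all 39 tested probe sets of these genes, 2 had an unadjusted limma p under 0.05. The groups did not overlap for 3 of the 14 genes, Ncoa1, Ncoa3 and Crebbp, all with knockout higher. Over all tested probe sets 4.97% did so, and 4.91% with knockout lower. Hsp90aa1, which holds the unbound receptor in a binding-ready state, was at -0.04 (SE 0.07), Fkbp4, the partner that opposes FKBP51, at -0.06 (SE 0.09), and Hsd11b1, which regenerates active corticosterone, at -0.05 (SE 0.09). The coactivators Ncoa3, at 0.32 (SE 0.16), and Ncoa1, at 0.14 (SE 0.07), had the smallest p of this list. All 4 tested genes of the corticotropin-releasing hormone system were below 0, from -0.14 for Crh to -0.05 for Crhr1, none of them with an unadjusted p under 0.05, and Crhbp, the binding protein, was at -0.08 (SE 0.10). Of the steroid receptor relatives, Pgr was at 0.17 (SE 0.12) and Esr1 at -0.13 (SE 0.24).

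Beside the metallothioneins, 8 metal and zinc handling genes were tested, 3 above and 5 below 0. Mt3, the brain metallothionein, was at -0.09 (SE 0.06) and Mtf1 at -0.01 (SE 0.17). Slc30a3, which loads zinc into synaptic vesicles, had log2 levels of 12.77, 12.72 and 12.59 in wild type and 12.35, 12.36 and 12.33 in knockout. Its groups did not overlap, and its log2 change was -0.35 (SE 0.09, limma p of 0.00286 before and 0.988 after adjustment). Hmox1, haem oxygenase 1, was dim and at 0.93 (SE 0.42).

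Clock genes, core and output together, were included because the hormone and the clock both follow the time of day. Of 14 tested, 3 were higher and 1 lower at an unadjusted limma p under 0.05, and 0 were called. Over all tested probe sets, 2.17% were higher and 2.21% lower at that p. Bhlhe40 was at 0.24 (SE 0.09), Per2 at 0.40 (SE 0.16) and Per3 at 0.60 (SE 0.24), while Nr1d1 was at -0.40 (SE 0.17). For Per2, a repressor of the clock, the knockout levels of 10.81 to 10.97 all lay above the wild-type levels of 10.44 to 10.57. Of 13 activity-regulated immediate early genes, 7 were above 0 and 6 below; Egr3 was at 0.33 (SE 0.14), Homer1 at 0.11 (SE 0.07) and 0 were called. Over all 7 of these lists, 43 of 79 tested genes were above 0, with a median log2 change of 0.03.

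Markers of other cell types were set beside these results, since several of the genes are strongly expressed outside neurons. Of 13 tested choroid plexus and ependymal markers, 11 had a log2 change above 0 (median 0.57). Their summed intensity was 203341 to 289162 on wild-type arrays and 227486 to 280324 on knockout arrays. The mean centred level, over the 14 markers with a probe set, was -0.89 to 0.14 on wild-type arrays and -0.38 to 0.56 on knockout arrays. Their order over the arrays differed from that of Sgk1 and Tsc22d3: replicate 1 of both groups was lowest in choroid plexus markers, whereas knockout replicate 1 was highest in Sgk1 and Tsc22d3. With the choroid plexus level as a covariate the log2 change of Sgk1 was 0.70 and that of Tsc22d3 1420772_a_at 0.68, against 0.50 and 0.48 without it, and that of Zbtb16 1439163_at was 0.34. This covariate was lowest on replicate 1 of both groups, so choroid plexus content and other traits of these arrays cannot be told apart. Of 11 meningeal markers 11 were above 0 (median 0.37), with a mean centred level of -0.29 to 0.01 on wild-type arrays and -0.17 to 0.43 on knockout arrays and summed intensities of 36565 to 44174 and 41255 to 59061, highest on knockout replicate 2 as was Zbtb16. Their part in the Zbtb16 value was not tested.

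Of 10 oligodendrocyte markers 3 were above and 7 below 0 (median -0.12), and their summed intensities did not overlap, at 342286 to 368705 on wild-type arrays and 318847 to 334624 on knockout arrays. Their mean centred level did overlap, at -0.01 to 0.11 on wild-type arrays and -0.09 to 0.08 on knockout arrays. Markers of astrocytes, cells that express Mt1, Mt2 and Glul, had 8 of 12 above 0 (median 0.06; summed intensity 337809 to 356161 on wild-type arrays and 356105 to 363069 on knockout arrays). Endothelial and mural markers had 8 of 11 above 0 (median 0.04; summed intensity 57712 to 66157 on wild-type arrays and 55928 to 77662 on knockout arrays). Markers shared by neurons of all regions had 8 of 9 below 0 (median -0.07; summed intensity 566878 to 596963 on wild-type arrays and 533836 to 580274 on knockout arrays). Of their 24 tested probe sets, 5 had an unadjusted limma p under 0.05 in either direction, where 2.17% of all tested probe sets were higher and 2.21% lower. Such counts were also seen in other lists, at 6 of 19 meningeal, 4 of 20 choroid plexus and 4 of 24 oligodendrocyte probe sets. They were 0 of 13 for microglial and 0 of 15 for dentate granule markers. Camk2a, a kinase of excitatory synapses, was at -0.17 (SE 0.07, limma p of 0.0267 before and 0.988 after adjustment). The receptor probe sets had a median log2 change of -0.07, and the part of neuron content in that value was not tested. Dentate granule markers had 6 of 7 above 0 (median 0.08), pyramidal neuron markers 4 of 10 (median -0.02), microglial markers 4 of 8 (median 0.03) and markers of other brain regions 6 of 11 (median 0.02). Of the red blood cell list only Alas2, which starts haem synthesis, had a tested probe set with a single symbol; it was dim, at 333 to 663 on wild-type arrays and 780 to 1099 on knockout arrays, with a log2 change of 0.92 (SE 0.31, limma p of 0.0128 before and 0.988 after adjustment). The part of these cell types in the values of the 10 genes was not tested. No tested marker of these lists was at 0 on any array.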

How the data were processed

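For the 6 arrays the deposited values are linear intensities, 1 per probe set; from the values, the authors had scaled each array to a common trimmed mean, and the software and its settings are not given in the sources used here. Probe sets were named from the platform annotation (34958 of 45101 with 1 symbol, 932 with several, 9211 with none), and all 10 symbols matched a RefSeq gene table. Here values were transformed as log2(intensity + 16), so fold changes of dim probe sets are understated. Controls (64 probe sets) and the dimmest 40% by mean value were dropped, which left 26999. The test of knockout against wild type was that of limma 3.58.1 under R 4.3.3 (a term for group alone, two-sided, variances moderated with an intensity trend), with Benjamini-Hochberg adjustment over all tested probe sets and a threshold of 0.05. Permutation tests were exact and two-sided. The fit was tested on simulated data. A gene of a list is represented by its brightest tested probe set. Mean centred levels of a list take the brightest probe set of every listed gene that has one, tested or not. Gene levels are not compared with each other, since probe sets differ in binding.

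The genes described, the lists and the tests were chosen with earlier results of these data known. The rule for named genes takes every probe set of the 10 genes, the 2 tested genes of smallest p in each other pathway list, Ppp1r1a, up to 2 markers of a cell type list, and the 3 genes of nearest profile; further genes of the lists were named for their known role, after their values were seen. Alternatives were other pseudocounts (1 and 64), filters (none and 60%), scalings (quantile, median), no intensity trend, weighted arrays, replicate number as block, fewer arrays, a choroid plexus covariate and averaging the probe sets of each gene. No detection calls were used. The number of arrays limits the precision. Promoter windows are those of RefSeq, build GRCm38.p6, and were searched by exact match on both strands.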

Additional observations from a re-analysis of the deposited data

How the results depend on the processing

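In all 18 alternatives run, 0 probe sets of the 10 genes and 0 genes of the other pathway lists were called, and the median log2 change of the 10 genes' tested probe sets stayed above 0, at 0.01 to 0.07. Of 447 single values under these alternatives, 412 kept their sign and 35 changed it, none of them called. These are not all separate values. Where the probe sets of a gene were averaged, its 1 mean was set against each of its probe sets. Above 0 throughout were Sgk1, 1420772_a_at and 1425281_a_at of Tsc22d3, 1439163_at and 1419874_x_at of Zbtb16, and 1428288_at of Klf9. Below 0 throughout were 1421866_at and 1460303_at of Nr3c1. The replicate numbers are not paired by any label, and the deviations of same-numbered samples correlated at 0.24, 0.05 and 0.10. The replicate block gave 7 higher probe sets over the whole table, and an adjusted p of 0.268 for Tsc22d3 1420772_a_at and 0.326 for Sgk1 (limma). Over all probe sets, 7 were called higher and 7 lower once replicate 1 of both groups was dropped, 1 and 6 with the choroid plexus covariate, and 0 to 2 higher leaving out 1 array (2 without knockout replicate 1). Called lower was 1 without an intensity trend and 1 with the mean of the probe sets of a gene. The cause of these changes was not tested. The median SE was 0.163 over the 25 probe sets and 0.177 over all tested. Larger differences also went uncalled, such as Sgk1 at 0.50 (SE 0.17), Zbtb16 1439163_at at 0.35 (SE 0.11) and Slc30a3 at -0.35 (SE 0.09). A difference had to be well above the SE to be called.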
